A study of Mus musculus with 9 samples.

Results

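The iron and oxoglutarate dependent dioxygenases are enzymes that hold a ferrous iron in the active site and use oxygen and oxoglutarate to oxidise DNA, RNA, histones, other proteins or small molecules. The list held 44 genes, chosen by family: the Tet DNA oxidases, the Jumonji histone demethylases, the prolyl hydroxylases that sense oxygen, the prolyl and lysyl hydroxylases of the endoplasmic reticulum, the AlkB family and 4 other hydroxylases. A probe named by its RefSeq accession was found for 43 of them, all but Tet1, and 40 passed the filter on dim signal, out of 14506 genes that did. The rule for the list names gene families and no measured value, but the list was drawn up with earlier results of these data known, and the filter keeps a gene that is bright in 1 group only, which was so for Egln3.

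Mouse erythroblasts, the nucleated precursors of red cells, were sorted from bone marrow as a fraction labelled subset II, and their RNA was amplified and hybridised to 9 single-colour arrays. The groups were 7 weeks on a low iron diet, 3 weeks on a low iron diet, and normal diet, with 3 arrays each. All mice were wild-type C57BL/6J and labelled female, and both low iron diets began after weaning. The series is titled as a study of iron deficiency anemia. By the design text the replicates are biological, and neither the age of the normal diet mice nor the number of mice behind a sample was given in the sources used here.

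In these enzymes the iron is bound by a few side chains and must be kept reduced, for which ascorbate is used, while oxoglutarate is spent as a co-substrate and leaves as succinate. Succinate and fumarate compete with oxoglutarate for the active site. The best known members in blood formation are Tet2, which oxidises methylcytosine in DNA, and the Egln prolyl hydroxylases, which mark the hypoxia-inducible factors for destruction when oxygen is present. The arrays measured the mRNA of the enzymes, not their iron content or activity.

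The arrays differed in ways that touch every comparison. The share of spots well above background was 45.2% to 53.6% on the 7 week arrays, 56.8% to 70.8% on the 3 week arrays and 65.5% to 66.3% on the normal diet arrays. The 75th percentile of signal, to which each array was scaled, was 799.4 to 1094 at 7 weeks, 1687 to 1836 at 3 weeks and 1511 to 1643 on normal diet. Spike-in controls, relative to that percentile, averaged log2 4.43 to 5.35 at 7 weeks, 1.10 to 1.56 at 3 weeks and 0.48 to 1.73 on normal diet. A level here is therefore relative to the rest of the same array, and in a bulk sample fewer cells of a type and less RNA per cell cannot be told apart. The 3 groups were hybridised on 3 separate slides, so the diet and the slide cannot be told apart. Sex-linked genes set normal diet replicates 1 and 2 against their female label. Eif2s3y, a Y-linked gene, was well above background on none of the 6 low iron arrays and on all 3 normal diet arrays. Its log2 levels were 5.09, 4.81 and -3.78 on normal diet replicates 1, 2 and 3. Xist, which silences an X chromosome in females, lay between -1.17 and 1.46 on the low iron arrays, against -5.62, -5.25 and -0.74 on those replicates. Of the listed dioxygenase genes, Phf8 and Tmlhe lie on the X chromosome.

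Of 14 erythroblast marker genes, 12 were tested and all 12 were well above background on every array. Against normal diet 3 of them were higher and 2 lower at 7 weeks, and 0 passed at 3 weeks by limma (0 also at an unadjusted p under 0.05). Their summed level was 2656 to 4080 times the 75th percentile at 7 weeks, 1920 to 2040 at 3 weeks and 2111 to 2306 on normal diet. The summed level of 11 tested markers of monocytes and macrophages was 23.3 to 29.3 at 7 weeks, 68.9 to 97.5 at 3 weeks and 38.2 to 58.1 on normal diet. For mast cells, basophils and eosinophils, 7 markers summed to 0.586 to 0.872 at 7 weeks, 0.588 to 24.5 at 3 weeks and 13.2 to 24.0 on normal diet. Summed neutrophil markers were 577.2 to 842.4 at 7 weeks, 456.9 to 646.2 at 3 weeks and 453.1 to 904.2 on normal diet, and summed B lineage markers were 4.25 to 15.8 at 7 weeks, 11.3 to 27.6 at 3 weeks and 5.73 to 10.9 on normal diet. The part of these other cells in the results was not tested.

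After 7 weeks of low iron diet, 10 of the 40 dioxygenase genes were lower than on normal diet and 3 were higher, by limma with an adjusted p under 0.05. The 13 called genes are 32.5% of those tested, near the 29.5% of all genes called in that comparison; 10.8% of all genes were higher and 18.6% lower. The 10 lower genes were the histone demethylases Kdm2a, Kdm2b, Kdm4c and Kdm7a, the Jumonji hydroxylase Kdm8, the collagen hydroxylase subunit P4ha1, the tRNA-modifying Alkbh8, and Phyh, Tmlhe and Asph. P4htm, Plod3 and Alkbh7 were higher. The median log2 change was -0.48 over the 40 genes and -0.26 over all genes tested.

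After 3 weeks, 3 dioxygenase genes were higher than on normal diet (Kdm3b, Egln3 and Alkbh1) and 2 were lower (P4ha3 and Alkbh7). These 5 are 12.5% of the 40, near the 11.2% of all genes called (3.57% of all genes were higher and 7.59% lower). The median change was -0.07 over the 40 genes and -0.16 over all genes. All 5 calls were lost when any 1 of the 3 normal diet or 3 week arrays was left out. There limma called 0 of the 40, with 8 to 11 at an unadjusted p under 0.05. Calls fell over all genes too, to between 1.21% and 5.56% in those fits.

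The 2 times on the diet differed from each other at 18 of the 40 genes, 7 higher and 11 lower at 7 weeks. That is 45% of the genes tested, against 37.2% of all genes (17.4% higher and 19.8% lower). This comparison does not use the normal diet arrays, apart from the shared estimate of spread. The members' median was -0.55 and that of all genes -0.14. In all, 24 of the 40 genes were called in at least 1 comparison and 16 in none, and Alkbh7 was the only one called in all 3. These counts were not made over all genes, so they do not set the list apart.

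Without normal diet replicates 1 and 2, whose sex-linked genes go against the label, limma called 0 of the 40 genes at 7 weeks (10 with an unadjusted p under 0.05) and 0 at 3 weeks (5 with an unadjusted p under 0.05). The fit then rested on 1 normal diet array, and over all 14506 genes 1 was called at 7 weeks and 0 at 3 weeks. The 18 log2 changes called against normal diet with all arrays kept their sign: Alkbh8 was at -2.34 at 7 weeks (adjusted p = 0.0722), Asph at -2.91 (adjusted p = 0.086), Kdm4c at -3.23 and Alkbh7 at 1.72 (adjusted p = 0.118 each), and Egln3 at 2.43 at 3 weeks (adjusted p = 0.278). The comparison of 7 with 3 weeks kept 12 of its 18 calls.

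**Figure D1:**
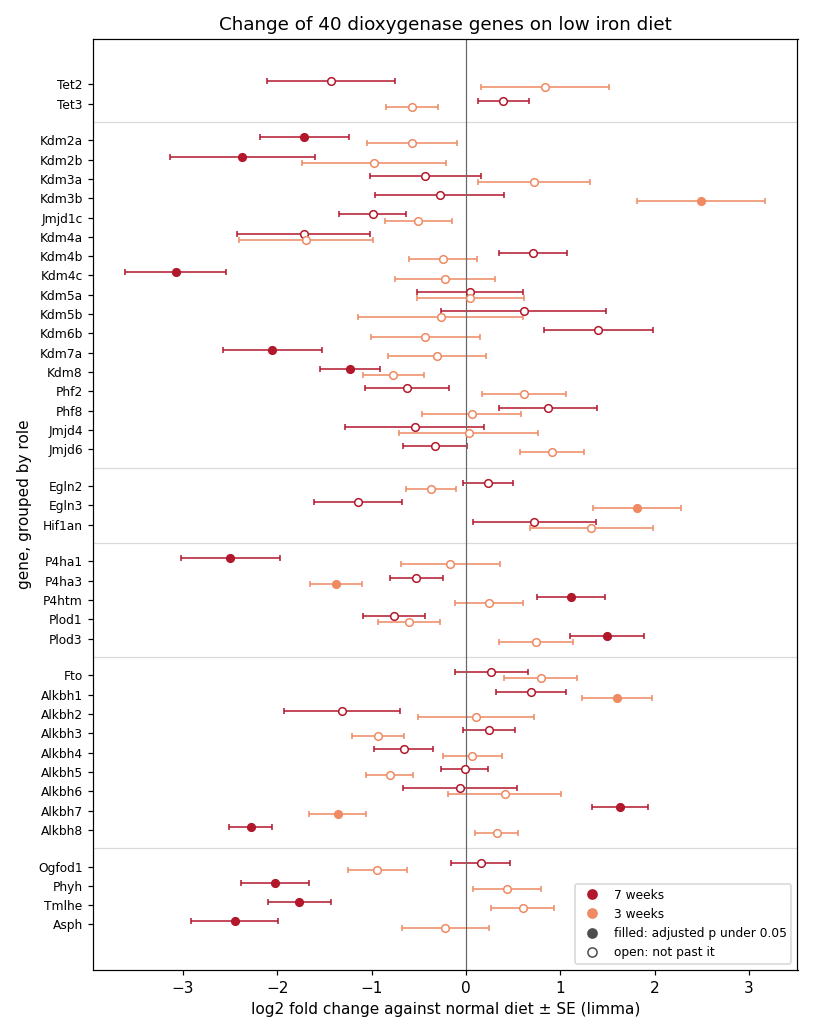
Log2 fold change against normal diet for the 40 tested genes, grouped by role, with the standard error of limma from 3 arrays per group; red is 7 weeks and orange 3 weeks of low iron diet, and filled points have an adjusted p under 0.05. Filled red points lie mostly left of 0 (10 lower, 3 higher), filled orange points on both sides (3 higher, 2 lower), and only Alkbh7 is filled at both times, on opposite sides.

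Among the DNA oxidases, which turn methylcytosine into hydroxymethylcytosine, neither Tet2 nor Tet3 passed the threshold against normal diet. On the scale used throughout, log2 of the signal over the array's 75th percentile, Tet2 was at -5.18, -4.05 and -5.99 at 7 weeks, -2.52, -2.94 and -2.94 at 3 weeks, and -4.78, -4.0 and -2.15 on normal diet. It was well above background on none of the 7 week arrays and on all 3 in each other group, and the 7 week and 3 week arrays did not overlap. Tet2 was at least 1.69-fold lower at 7 weeks than at 3 weeks (fitted log2 change -2.27 ± 0.68, SE, n = 3 each, adjusted p = 0.028), and a second Tet2 probe, also detected on no 7 week array, at least 1.21-fold lower (adjusted p = 0.0217). The Tet2 call was lost without any 1 of the 3 week arrays, without 7 week replicate 3, and under normexp background correction (-0.92, adjusted p = 0.0607). Tet3 was higher at 7 than at 3 weeks (0.97 ± 0.27, adjusted p = 0.0219), but its signal before scaling differed by only 0.01.

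The 17 Jumonji genes include demethylases of several histone lysines and a few hydroxylases of other proteins. At 7 weeks 5 of them were lower than on normal diet and none was higher, with 8 at an unadjusted p under 0.05. That is 29.4% of them, against 29.5% of all genes called and 18.6% lower, and their median change was -0.54, against -0.26 over all genes. Kdm4c, which removes methyl groups from histone H3, was at 0.03, -1.93 and 0.30 at 7 weeks, 2.56, 1.96 and 2.43 at 3 weeks, and 2.65, 2.28 and 2.69 on normal diet. All 3 arrays at 7 weeks lay below all 6 others, an 8.43-fold lower level than on normal diet (-3.08 ± 0.53, adjusted p = 0.00533) and 7.23-fold lower than at 3 weeks (-2.85 ± 0.53, adjusted p = 0.00397).

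Kdm7a, which removes repressive histone marks, was at -0.66, -1.07 and -0.96 at 7 weeks, 1.27, 0.53 and 0.76 at 3 weeks, and 1.46, -0.13 and 2.14 on normal diet. The 7 week arrays were below all others although the normal diet arrays were spread widely (-2.05 ± 0.52 against normal diet, adjusted p = 0.02). A weaker Kdm7a probe gave -2.01 ± 0.83 (adjusted p = 0.0942 in a fit of every probe). Without normal diet replicate 1 or 3 the Kdm7a call was lost.

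Kdm2a and Kdm2b are demethylases that bind CpG islands in DNA. Kdm2b was at -0.63, 2.22 and 2.77 at 7 weeks, 3.03, 2.20 and 3.32 at 3 weeks, and 3.94, 3.73 and 3.80 on normal diet. Every 7 week array was below every normal diet array, and replicate 1 was the lowest by far (-2.37 ± 0.76, adjusted p = 0.0454); this call was lost in 12 of 21 other settings. The brightest Kdm2a probe was at 2.76, 0.59 and 1.78 at 7 weeks and at 3.43, 3.43 and 3.40 on normal diet, without overlap (-1.71 ± 0.47, adjusted p = 0.0266).

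A second Kdm2a probe was at 1.04, 0.60 and 0.08 at 7 weeks and at -1.87, -1.36 and -1.25 on normal diet, again without overlap but in the opposite direction (2.07 ± 0.44, adjusted p = 0.0107), so the direction for Kdm2a depends on the probe. Kdm8, a Jumonji hydroxylase, was at 0.76, 1.76 and 1.54 at 7 weeks and at 2.76, 2.74 and 2.24 on normal diet (-1.23 ± 0.32, adjusted p = 0.0224), with no overlap. The call of the brightest Kdm2a probe was lost without any 1 of the normal diet arrays, and that of Kdm8 without normal diet replicate 1 or 2, under quantile scaling (-1.0, adjusted p = 0.0571) and with the 75th percentile over probes detected on all arrays (-0.92, adjusted p = 0.0838).

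At 3 weeks 1 of the 17 Jumonji genes was higher and none was lower (5.88% called, against 11.2% of all genes). Kdm3b, which removes methyl groups from a repressive mark on histone H3, was at 1.29, 0.79 and 1.23 at 3 weeks and at -1.06, -2.26 and -0.85 on normal diet. The groups did not overlap (2.49 ± 0.68, adjusted p = 0.0481), and its 7 week values of -0.22, -3.20 and -1.59 were below all 3 week values (-2.77 ± 0.68, adjusted p = 0.0128). Its paralog Kdm3a, which is known as a hypoxia-inducible gene, was at 4.6, 1.95 and 2.35 at 7 weeks, 4.18, 4.06 and 4.12 at 3 weeks, and 3.28, 3.38 and 3.54 on normal diet. It did not pass at 7 weeks (-0.43 ± 0.59, adjusted p = 0.601) or at 3 weeks (0.72 ± 0.59, adjusted p = 0.451). This rested on 7 week replicate 1, the highest of its group: without it Kdm3a was lower at 7 weeks than on normal diet (-1.25, adjusted p = 0.0072) and than at 3 weeks (-1.97, adjusted p = 0.00074), and passed as higher at 3 weeks (0.72, adjusted p = 0.0429).

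Between the 2 times, Kdm6b, which removes the Polycomb mark, was higher at 7 weeks (1.83 ± 0.58, adjusted p = 0.034), and Jmjd6, a lysyl hydroxylase of splicing factors, was lower (-1.24 ± 0.34, adjusted p = 0.0195). The other Jumonji genes (Jmjd1c, Kdm4a, Kdm4b, Kdm5a, Kdm5b, Phf2, Phf8 and Jmjd4, with Kdm3a) passed in no comparison. Kdm4a had the widest change against normal diet among them, -1.72 ± 0.71 at 7 weeks (adjusted p = 0.0946). Another Phf8 probe, well above background on no 7 week array, was at least 2.15-fold lower at 7 weeks than on normal diet (adjusted p = 0.0311), where the brightest was at 0.87 ± 0.52.

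**Figure D2:**
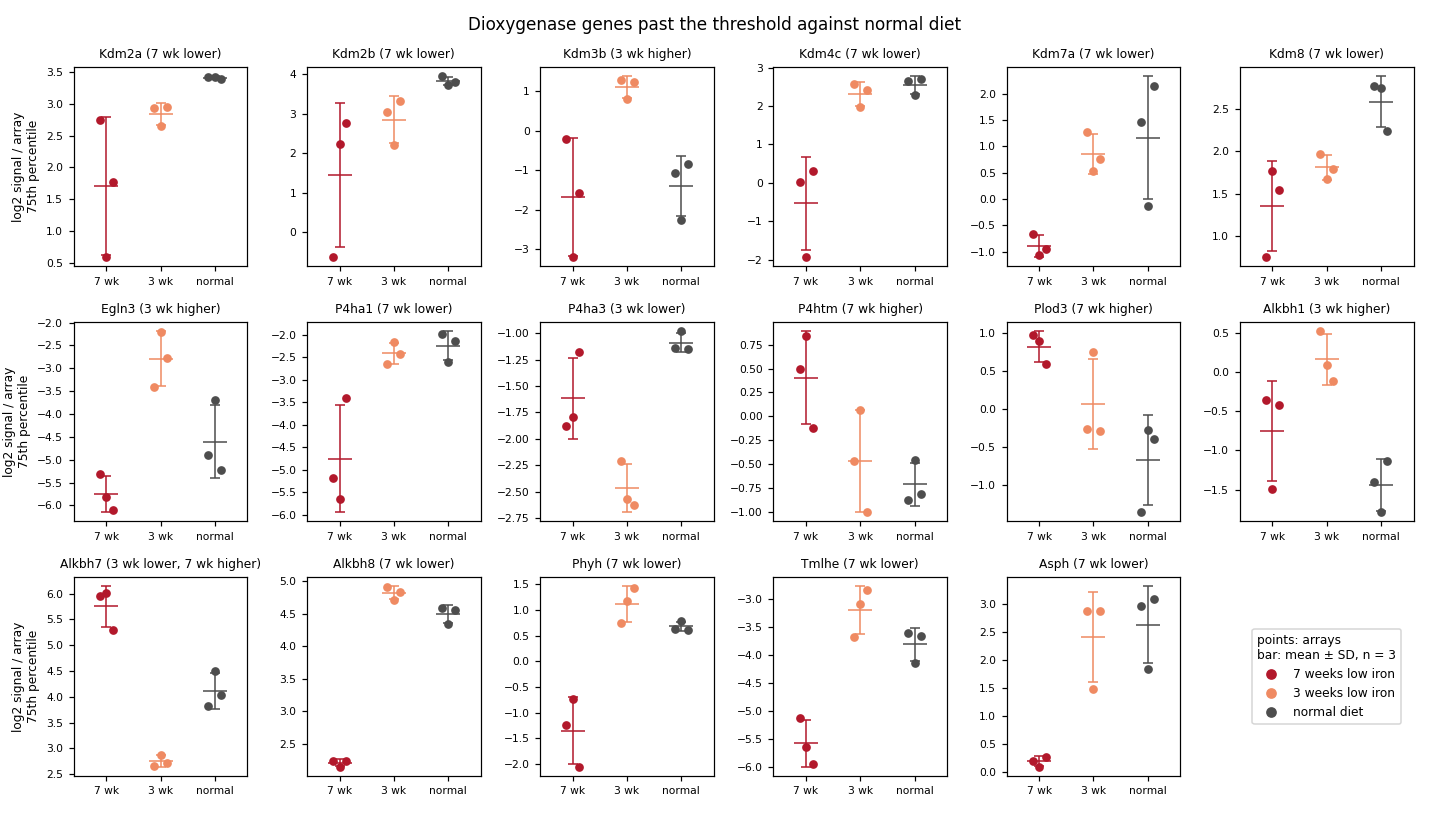
Scaled log2 level on each array of the 17 genes past the threshold against normal diet at either time, with 7 weeks at the left, 3 weeks in the middle and normal diet at the right of each panel; points are arrays and bars the mean ± SD of 3. In Kdm4c, Kdm7a, Egln3, P4ha1, Alkbh8, Phyh, Tmlhe and Asph the 7 week points lie below all 6 others. Egln3 and Tmlhe were well above background on no 7 week array. How many of all genes have such a pattern was not counted, and 18.6% of all genes were called lower at 7 weeks. The Alkbh7 panel has the 3 groups apart, with 7 weeks on top and 3 weeks at the bottom.

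The oxygen sensors are the prolyl hydroxylases Egln1 to Egln3 and the asparaginyl hydroxylase Hif1an. Egln1 was well above background on only 2 of 9 arrays, both at 3 weeks, and was not tested. Egln3, itself a known target of the hypoxia-inducible factors, was at -3.40, -2.20 and -2.78 at 3 weeks and at -4.89, -3.70 and -5.22 on normal diet. The groups did not overlap (1.81 ± 0.47, adjusted p = 0.0392). Egln3 passed the filter through the 3 week group alone, being well above background on 3 arrays at 3 weeks, 2 on normal diet and 0 at 7 weeks, so a higher value at 3 weeks was favoured by the filter. With no filter the call was lost (adjusted p = 0.0553). At 7 weeks it was at -5.31, -5.82 and -6.10 and well above background on no array, at least 1.7-fold lower than at 3 weeks (fitted -2.95 ± 0.47, adjusted p = 0.00188). Against normal diet the 7 week change did not pass (-1.14 ± 0.47, adjusted p = 0.0926). Egln2, at 4.40 to 4.75 at 7 weeks, 3.72 to 4.34 at 3 weeks and 4.26 to 4.39 on normal diet, passed in no comparison, and neither did Hif1an. Of the 11 monocyte and macrophage markers, 4 were higher at 3 weeks than on normal diet (3.57% of all genes) and none lower. At 7 against 3 weeks 8 were lower (19.8% of all genes) and none higher. Of 14 neutrophil markers, 2 were higher at 3 weeks and none lower, and 5 were lower and 2 higher at 7 against 3 weeks. Of 9 B lineage markers, 2 were higher at 3 weeks and none lower, and 2 were lower and 1 higher at 7 against 3 weeks. The part of these cells in the Egln3 values was not tested.

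The promoter stretch of Egln3, and those of Alkbh7 and Alkbh8 are printed. Egln3 was the only tested oxygen sensor called in a comparison, though it passed the filter through the 3 week group alone. Alkbh7 and Alkbh8 had the smallest adjusted p among the genes higher and lower at 7 weeks. The letters show where the core of the hypoxia response element lies. Each runs from 250 bases before to 50 bases after the start of the gene in RefSeq GRCm38.p6, 5′ to 3′ on the gene's own strand: chr12:54203825-54204124 on the minus strand for Egln3, chr17:56997089-56997388 on the plus strand for Alkbh7 and chr9:3334981-3335280 on the plus strand for Alkbh8. Capitals mark the core, ACGTG or GCGTG, on either strand.
Egln3: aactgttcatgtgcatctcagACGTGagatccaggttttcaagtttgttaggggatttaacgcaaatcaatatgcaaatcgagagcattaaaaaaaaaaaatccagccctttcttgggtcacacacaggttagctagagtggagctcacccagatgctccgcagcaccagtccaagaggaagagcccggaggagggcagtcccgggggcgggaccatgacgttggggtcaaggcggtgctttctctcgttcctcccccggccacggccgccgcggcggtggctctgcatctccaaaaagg
Alkbh7: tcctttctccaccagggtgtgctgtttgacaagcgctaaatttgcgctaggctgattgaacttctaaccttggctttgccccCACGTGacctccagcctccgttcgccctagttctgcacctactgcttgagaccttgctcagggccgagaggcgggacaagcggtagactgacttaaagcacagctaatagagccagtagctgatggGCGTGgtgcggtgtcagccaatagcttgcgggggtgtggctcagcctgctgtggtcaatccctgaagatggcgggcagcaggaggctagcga
Alkbh8: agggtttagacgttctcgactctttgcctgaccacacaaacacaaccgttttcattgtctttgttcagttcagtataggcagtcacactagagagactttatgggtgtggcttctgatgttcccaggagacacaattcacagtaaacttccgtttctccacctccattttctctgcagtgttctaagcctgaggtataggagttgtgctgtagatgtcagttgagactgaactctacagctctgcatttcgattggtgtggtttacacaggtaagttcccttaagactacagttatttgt
Egln3 held 1 match, Alkbh7 held 3 (a CACGTG palindrome counts once on each strand, and GCGTG stands nearer the start) and Alkbh8 none. Over RefSeq, 43.8% of 32851 such promoters held a match, against 28 of the 46 promoters of dioxygenase genes found there (60.9%). The GATA motif, AGATAA or TGATAA on either strand, was in none of the 3 shown, in 5 of those 46 (10.9%) and in 18.6% of all. A match describes letters and says nothing of binding.

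Most of the listed hydroxylases of the endoplasmic reticulum modify proline and lysine in collagens and other secreted proteins. At 7 weeks 2 of the 5 tested were higher and 1 was lower (10.8% and 18.6% over all genes). Plod3, a lysyl hydroxylase, was at 0.98, 0.90 and 0.60 at 7 weeks and at -1.35, -0.27 and -0.39 on normal diet, with no overlap (1.5 ± 0.39, adjusted p = 0.0225). P4htm, a transmembrane prolyl hydroxylase, was at 0.49, 0.84 and -0.12 at 7 weeks and at -0.87, -0.46 and -0.81 on normal diet (1.12 ± 0.36, adjusted p = 0.0457). Before scaling, the signal of Plod3 and P4htm differed by 0.69 and 0.31. P4htm passed narrowly and lost its call in 9 of 21 other settings, among them without any 1 of the normal diet arrays, and the call of Plod3 was lost without normal diet replicate 1 or 3.

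P4ha1, a catalytic subunit of collagen prolyl hydroxylase, was at -5.18, -5.65 and -3.41 at 7 weeks, -2.64, -2.17 and -2.43 at 3 weeks, and -1.99, -2.61 and -2.15 on normal diet. It was well above background on 1 of 3 arrays at 7 weeks and on all 6 others, and all 3 were below them (-2.50 ± 0.52, adjusted p = 0.0101). A second P4ha1 probe gave -0.25 ± 0.58 (adjusted p = 0.763). P4ha3, another catalytic subunit, was at -2.21, -2.57 and -2.63 at 3 weeks and at -1.14, -0.98 and -1.14 on normal diet, without overlap (-1.38 ± 0.28, adjusted p = 0.02). Its second probe gave 0.38 ± 0.63 (adjusted p = 0.722).

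P4ha2 and Plod2 were not tested, since no group had all 3 arrays well above background. Plod1 passed in no comparison by its brightest probe, while a second Plod1 probe was higher at 3 weeks (1.35 ± 0.29, adjusted p = 0.0252). Of 12 markers of stromal cells, the usual source of the collagen enzymes among these, 7 were tested and Col1a1, Pdgfrb, Cdh5, Sparc and Dcn were not. Those 7 summed to 8.08 to 12 at 7 weeks, 3.29 to 5.03 at 3 weeks and 4.34 to 5.52 on normal diet. Kdr was the brightest of them on every array, so the sum mostly follows Kdr. Its log2 level was 2.45 to 3.18 at 7 weeks, 1.06 to 1.59 at 3 weeks and 1.62 to 2.02 on normal diet. Col3a1 was well above background on no 7 week array. Against normal diet, 3 of the 7 were higher at 7 weeks and none lower (42.9%, against 29.5% of all genes called). The part of stromal cells in the changes of Plod3, P4htm and P4ha1 was not tested.

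The AlkB family repairs alkylated DNA or removes or adds methyl groups in RNA, and all 9 members were tested. Alkbh7, a mitochondrial member linked to cell death after DNA damage, was at 5.95, 6.00 and 5.30 at 7 weeks, 2.67, 2.88 and 2.72 at 3 weeks, and 3.82, 4.50 and 4.03 on normal diet. The 3 groups did not overlap. Alkbh7 rose 3.1-fold at 7 weeks against normal diet (1.63 ± 0.30, adjusted p = 0.00646, and 0.82 before scaling), and fell by 1.36 on the log2 scale at 3 weeks (SE 0.30, adjusted p = 0.0257). A dimmer Alkbh7 probe gave 0.47 ± 0.31 at 7 weeks (adjusted p = 0.266) and 0.05 ± 0.31 at 3 weeks (adjusted p = 0.933), so the 3 week fall was seen by 1 of 2 probes.

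Alkbh8, which completes the modification of wobble uridines in tRNA, was at 2.24, 2.15 and 2.25 at 7 weeks, 4.91, 4.71 and 4.84 at 3 weeks, and 4.59, 4.34 and 4.55 on normal diet. It was 4.86-fold lower at 7 weeks than on normal diet (-2.28 ± 0.23, adjusted p = 0.00122) and 6.11-fold lower than at 3 weeks (-2.61 ± 0.23, adjusted p = 0.000403). The 7 week values lay far below all 6 others, and the 3 week and normal diet values, close together, did not overlap either.

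Alkbh1, a tRNA and mitochondrial RNA demethylase, was at 0.52, 0.08 and -0.12 at 3 weeks and at -1.40, -1.78 and -1.13 on normal diet (1.60 ± 0.37, adjusted p = 0.0287), with no overlap. The RNA demethylase Alkbh5 was at 5.02, 5.03 and 5.03 at 3 weeks and at 5.97, 5.86 and 5.68 on normal diet, which did not pass (-0.81 ± 0.25, adjusted p = 0.0661). A second Alkbh5 probe passed as lower at 7 weeks (-1.97 ± 0.31, adjusted p = 0.00377) and at 3 weeks (-1.58 ± 0.31, adjusted p = 0.0198), where the brightest probe was at -0.01 at 7 weeks. Fto, the other demethylase of RNA adenosine, and Alkbh2, Alkbh4 and Alkbh6 passed in no comparison. Alkbh3, which repairs alkylated single strands, was higher at 7 than at 3 weeks (1.18 ± 0.28, adjusted p = 0.0101), with a difference of 0.22 before scaling.

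Of the 4 other hydroxylases, Phyh, Tmlhe and Asph were lower at 7 weeks than on normal diet, and Ogfod1 did not pass. Over all genes, 29.5% were called and 18.6% were lower. Phyh, the peroxisomal enzyme that starts the breakdown of phytanic acid, was at -1.25, -0.74 and -2.05 at 7 weeks, 0.74, 1.17 and 1.42 at 3 weeks, and 0.63, 0.79 and 0.61 on normal diet. It was 4.06-fold lower at 7 weeks than on normal diet (-2.02 ± 0.36, adjusted p = 0.00586), and the 7 week arrays lay below all others.

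Asph, which hydroxylates epidermal growth factor-like domains and whose locus also makes transcripts without the catalytic domain, was at 0.20, 0.09 and 0.27 at 7 weeks, 2.88, 1.48 and 2.88 at 3 weeks, and 2.97, 1.84 and 3.1 on normal diet. All 3 were below all 6 others (-2.45 ± 0.46, adjusted p = 0.00691). The 3 other Asph probes also passed as lower at 7 weeks than on normal diet (adjusted p = 0.0274, 0.00279 and 0.0314), but they were well above background on 1, 0 and 1 of the 3 arrays at 7 weeks. The probe detected on none was at least 9.52-fold lower, and the fitted differences of the other 2 rest partly on dim signal. In that comparison Asph was the only gene of the 16 with several tested probes in which all probes passed in the same direction. At 7 against 3 weeks 1 Asph probe did not pass (-1.03 ± 0.88, adjusted p = 0.375), while both probes of Tet2 and both of Kdm7a passed as lower.

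Tmlhe, the first enzyme of carnitine synthesis, was at -5.12, -5.64 and -5.95 at 7 weeks and well above background on none of those arrays, against -3.61, -4.14 and -3.67 on normal diet (fitted -1.77 ± 0.34, adjusted p = 0.00709). No fold is given against normal diet, because the bound was under 1. It was at least 1.28-fold lower at 7 than at 3 weeks (fitted -2.37 ± 0.34, adjusted p = 0.00121). Under normexp background correction both Tmlhe calls were lost, with -0.05 against normal diet (adjusted p = 0.876) and -0.37 against 3 weeks (adjusted p = 0.195). Ogfod1, which hydroxylates a ribosomal protein of the small subunit, lay at 23.4% of the saturation signal. Its 7 week against 3 week change of 1.09 ± 0.31 (adjusted p = 0.0241) was 0.14 before scaling and had a value of -0.0065 under quantile scaling and -0.24 as a mean over its probes, so its direction depends on the processing.

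**Figure D3:**
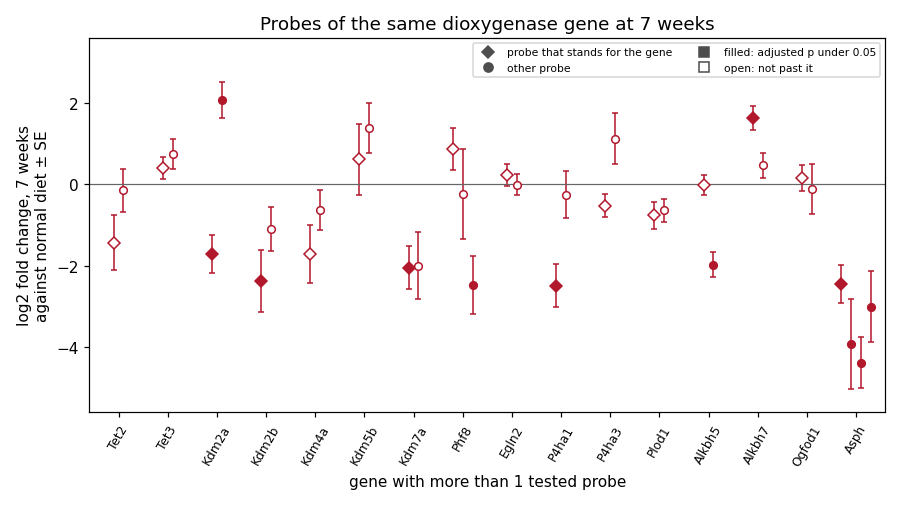
Log2 fold change at 7 weeks against normal diet, ± SE, for each tested probe of the 16 genes with more than 1; diamonds stand for the gene, circles are its other probes, and filled marks have an adjusted p under 0.05 over all probes. All 4 Asph probes are filled and below 0, though 3 of them were dim at 7 weeks, the Kdm2a probes are filled on opposite sides of 0, and Alkbh7 and P4ha1 have 1 filled probe each.

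Genes around these enzymes were followed by lists. Of 16 tested relatives in the same superfamily outside the 44, 1 was higher and 1 lower at 7 weeks (12.5% called, against 29.5% of all genes): P3h1, a collagen prolyl hydroxylase, rose (2.42 ± 0.29, adjusted p = 0.00209) and Ogfod3 fell (-2.22 ± 0.72, adjusted p = 0.0455). At 3 weeks P3h2 was lower (-1.71 ± 0.36, adjusted p = 0.0219) and Phyhd1 higher (1.34 ± 0.35, adjusted p = 0.0415). The median of the list was 0.45 at 7 weeks and -0.01 at 3 weeks.

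Enzymes that make or use oxoglutarate, succinate and fumarate were measured for all 22 listed genes. At 7 weeks 5 were lower and none higher (22.7%, against 29.5% of all genes called and 18.6% lower). These were Suclg2 (-2.48 ± 0.56, adjusted p = 0.0126), Dld (-1.88 ± 0.40, adjusted p = 0.0105), Idh3b (-1.80 ± 0.45, adjusted p = 0.0182), Idh3a (-1.76 ± 0.44, adjusted p = 0.0183) and Sdhd (-1.34 ± 0.33, adjusted p = 0.0177). At 3 weeks Sdhc was lower (-1.42 ± 0.29, adjusted p = 0.0209). Of the 10 iron chaperones and ascorbate transporters, 4 were higher at 7 weeks and none lower (40% called, against 29.5% of all genes called and 10.8% higher). These were the glucose and dehydroascorbate carriers Slc2a1 (6.37 ± 1.15, adjusted p = 0.00625) and Slc2a3 (1.23 ± 0.41, adjusted p = 0.0495), the chaperone paralog Pcbp4 (2.12 ± 0.47, adjusted p = 0.0116) and Bola2 (1.73 ± 0.38, adjusted p = 0.0115). At 3 weeks Slc2a3 was higher (1.76 ± 0.41, adjusted p = 0.0287).

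In the hypoxia-inducible factor pathway, 5 of 12 genes were higher at 7 weeks and none was lower (41.7%, against 29.5% of all genes called and 10.8% higher). Hif3a (2.38 ± 0.53, adjusted p = 0.0124) and Epas1 (1.15 ± 0.28, adjusted p = 0.0157) encode factor subunits, and Elob (1.48), Eloc (0.77) and Rbx1 (0.72) belong to the ubiquitin ligase with Vhl. For Eloc and Rbx1 the signal before scaling differed by -0.04 and -0.09. At 3 weeks 5 of the 12 were lower, Arnt, Os9, Elob, Rbx1 and Eloc, from -1.42 to -0.95 (41.7%, against 11.2% of all genes called and 7.59% lower). Hif1a passed at neither time (0.32 ± 0.60 at 7 weeks, adjusted p = 0.708).

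Of 18 known hypoxia-inducible targets outside the family, 6 were higher and 1 lower at 7 weeks (38.9% called, against 29.5% of all genes; 10.8% of all genes were higher and 18.6% lower). Slc2a1, on this list too, was at 6.22, 1.29 and 2.22 at 7 weeks, against -3.96, -2.43 and -3.01 on normal diet. Vegfa (3.96 ± 0.60, adjusted p = 0.00375), Ankrd37 (3.99 ± 0.61, adjusted p = 0.00375) and Aldoa (1.77 ± 0.33, adjusted p = 0.00704) were higher, Bnip3 passed narrowly (1.0 with 0.19 before scaling, adjusted p = 0.0367), and Mxi1 was lower (-1.74 ± 0.43, adjusted p = 0.0176). At 3 weeks limma called 0 of the 18, with 5 at an unadjusted p under 0.05.

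The writers of the marks that these demethylases remove were lower for 7 of 25 tested genes at 7 weeks and for 7 at 3 weeks, with none higher at either time. The 28% stands against 29.5% of all genes called at 7 weeks and 11.2% at 3 weeks. Of all genes, 18.6% were lower at 7 weeks and 7.59% at 3 weeks. At 7 weeks the histone methyltransferase Suv39h1 (-3.36 ± 0.61, adjusted p = 0.00623), Wtap of the RNA adenosine methylation complex (-1.94 ± 0.35, adjusted p = 0.00622) and the Polycomb gene Eed (-1.72 ± 0.33, adjusted p = 0.00704) were lower, as were Kmt2c (-1.70), Ehmt1 (-1.28) and Suz12 (-1.26). At 3 weeks Ehmt1, also a histone methyltransferase, was lower (-2.23 ± 0.37, adjusted p = 0.0128), with Setd1a (-1.73), Suv39h2 (-1.63), Dnmt3b (-1.62), Wtap (-1.58) and Eed (-1.35).

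Of 5 flavin demethylases and their partners, Hdac2, Hdac1 and Kdm1b were lower at 7 weeks, from -3.11 to -1.78. That is 60% called, against 29.5% of all genes called and 18.6% lower. Hdac2 and Kdm1b were well above background on only 2 of 3 arrays at 7 weeks. Of 12 tested proteins that the hydroxylases act on, the collagen gene Col1a2 (1.46) and the ribosomal protein genes Rpl27a (1.04) and Rpl8 (0.91) were higher at 7 weeks, and U2af2 (-1.18) and Drg1 (-1.17) were lower. At 3 weeks Rpl27a (-1.63) and Col5a1 (-1.62) were lower. That is 41.7% called at 7 weeks and 16.7% at 3 weeks, against 29.5% and 11.2% of all genes. No test compared any of these lists with the rest of the genes.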

How the data were processed

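The members and gene lists were chosen with earlier results of these data known. Per the file headers, the deposited spot intensity is the processed signal of Agilent Feature Extraction 10.7.3.1, with the background subtracted inside each array and no scaling from array to array. A deposited table of the whole series gives log2 values centred on each probe's median (column medians 0, except -0.019 for 7 week replicate 2), with the normalization before centring not given in the sources used here. It served as an alternative, and its values followed the scanner intensities with r from 0.998 to 0.999.

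From the deposited intensity, outlier spots and controls were left out, log2 signal minus the array's 75th percentile was averaged per probe, and probes were named by RefSeq accession (GRCm38.p6). A probe was tested if well above background on all 3 arrays of a group, meaning on at least 0.5 of its usable spots, and the brightest probe stood for a gene. No spot was saturated. A fold written "at least" sets the brighter group against the higher of the dim probe's signal and the lowest signal well above background. limma 3.58.1 in R 4.3.3 fitted all 9 arrays, two-sided, with Benjamini-Hochberg adjustment over 14506 genes and a threshold of 0.05; probe values come from a fit of every named probe. Errors are standard errors from 3 arrays per group, and the number of arrays limits the precision. All 44 members were named, with the genes of the other lists past the threshold against normal diet, up to 6 per list and comparison by size of change. The script was tested on simulated data. Replicate numbers did not pair the samples.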

Additional observations from a re-analysis of the deposited data

Results flagged for a closer look

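The 7 and 3 week groups differed for 18 of the 40 genes by limma's test (45%, against 37.2% of all genes). Both effects share the normal diet arrays as their baseline, so the difference between them is that of 7 against 3 weeks. The effect at 7 weeks minus that at 3 weeks was below 0 for 11 genes: Egln3 (-2.95), Kdm4c (-2.85), Kdm3b (-2.77), Alkbh8 (-2.61), Phyh (-2.46), Tmlhe (-2.37), P4ha1 (-2.33), Tet2 (-2.27), Asph (-2.23), Kdm7a (-1.75) and Jmjd6 (-1.24), on the log2 scale. It was above 0 for Alkbh7 (2.99), Kdm6b (1.83), Alkbh3 (1.18), Ogfod1 (1.09), Tet3 (0.97), P4ha3 (0.85) and Alkbh5 (0.79). For P4ha3 and Alkbh5 the signal before scaling differed by -0.10 and -0.16, and their calls were lost in 14 and 13 of 21 other settings. Egln3, Tet2 and Tmlhe were well above background on no 7 week array. Without 1 of the 3 week or 7 week arrays the calls of Tet2, Tet3, Kdm6b, Kdm7a, Jmjd6 and Ogfod1 were lost in at least 1 case. Those of Kdm3b, Kdm4c, Egln3, P4ha1, Alkbh3, Alkbh7, Alkbh8, Phyh and Asph passed in every setting in which the gene was tested. Egln3 and P4ha1 were not tested where a probe had to be well above background on all 9 arrays. Egln3 passed the main filter through the 3 week group alone, so a lower value at 7 than at 3 weeks was favoured by the filter. These settings used the brightest probe or the mean over probes. In the limma fit of every probe, a second probe did not pass for Alkbh7 (0.42 ± 0.31, adjusted p = 0.305) or P4ha1 (-0.56 ± 0.58, adjusted p = 0.474). The dimmest tested probe by rank did not pass for Asph either (-1.03 ± 0.88, adjusted p = 0.375), while its other probes passed as lower. Slide, time on the diet and any difference in age cannot be told apart.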

How the results depend on the processing

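The count of called genes at 3 weeks against normal diet was 5, where 11.2% of all genes were called. The share of all genes called in the same fit is given in brackets. The count became 3 under quantile scaling (9.71%), 3 with no filter on dim probes (6.34%) and 3 when the probes of a gene were averaged (9.13%). It was 8 with normexp on the median spot signal, chosen after seeing the data (14.1%), and 12 with only the 2 groups compared (30.1%). With 1 array left out it lay between 0 and 10. It was 0 without any 1 normal diet or 3 week array (1.21% to 5.56%) and 10 without 7 week replicate 1 (23.9%). At 7 weeks against normal diet the count was 13 (29.5%), and 8 with only the 2 groups compared (19.3%). With 1 array left out it lay between 7 and 15. It was 7 without normal diet replicate 1 (12%) and 8 without replicate 3 (14.7%). At 7 against 3 weeks it was 18 (37.2%). There it lay between 11 without 3 week replicate 3 (24.4%) and 22 without 7 week replicate 1 (44.8%). With the replicate block the counts were 5, 13 and 17; the shared numbers did not pair the samples (correlations of same-numbered arrays from -0.17 to 0.29). The normexp alternative on the mean spot signal was not run. Kdm2a at 7 weeks turned to 0.18 with the mean over its probes, and Ogfod1 at 7 against 3 weeks to -0.0065 under quantile scaling and -0.24 with the mean over its probes; the cause was not tested. Over single genes, 2300 of 2502 values kept their side of the threshold, and their direction where called. Of the rest, 149 lost a call, 50 gained one and 3 turned. A change of direction in a gene called in neither fit was not counted. Kdm4c, P4ha1, Alkbh7, Alkbh8, Phyh and Asph lost their 7 week call only without normal diet replicates 1 and 2. P4ha1 was not tested where a probe had to be well above background on all 9 arrays. For P4ha1 and Alkbh7 a second probe did not pass at 7 weeks against normal diet. Under normexp the calls of Tmlhe were lost at 7 weeks against both other groups, and that of Tet2 at 7 against 3 weeks; Kdm8 lost its 7 week call under both other scalings, and Kdm3a gained calls without 7 week replicate 1. The median of all genes moved with the scaling: at 7 weeks against normal diet it was -0.26, and 0.05 with the 75th percentile taken over probes detected on all arrays, where all genes split into 2198 higher and 1730 lower calls in place of 1573 and 2701 (2013 and 2503 under normexp). At 3 weeks it was -0.16, -0.01 under quantile scaling and 0.07 with that percentile, where the split was 702 higher and 523 lower in place of 518 and 1101 (624 and 785 under quantile scaling). Low signal limits Tet2, Egln3, P4ha1 and Tmlhe, which were near background at 7 weeks.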
